A study of Mus musculus with 2 samples.

Results

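The genes of TGF-beta and bone morphogenetic protein (BMP) signalling were examined for differentially methylated regions between mouse adipose progenitors of 2 kinds. The members are 50 genes of the pathway: its ligands, receptors, SMAD proteins, antagonists, ID genes and regulators. A region was assigned to a member when it overlapped the RefSeq gene body extended by 5 kb on both sides (mouse build mm10). By this rule 116 of the 34139 regions in the authors' deposited list belonged to the members, each to 1 member only. The list compares 1 library of PDGFRα+ progenitors with 1 library of CD137+ progenitors. PDGFRα (CD140a) is a surface receptor of adipose progenitors, and CD137 is a surface antigen linked to beige fat precursors. Both kinds of cell came from C57BL/6 mice, were isolated with magnetic beads from subcutaneous or visceral fat and put through adipogenic differentiation, and both received dexamethasone (DEX), a synthetic glucocorticoid. The depot behind each library, the number of animals and their age are not given in the labels. Untreated cells were not compared here, and the regions cannot be tied to DEX.

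Ligands of this family are secreted dimers that bring together type I and type II receptor kinases, and the type I receptor then phosphorylates SMAD proteins. TGF-beta and activin receptors act on SMAD2 and SMAD3, whereas BMP receptors act on SMAD1, SMAD5 and SMAD9, and both sets enter the nucleus with SMAD4. Among mesenchymal cells of fat, BMP signals are known for commitment to the adipocyte lineage, and TGF-beta is known to restrain adipocyte differentiation and to favour matrix production.

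Every region carries a signed score and no methylation level, coverage or number of CpG sites. What the sign stands for is not stated. The PDGFRα+ sample is named first in the list's title, and if the score is PDGFRα+ minus CD137+, PDGFRα+ cells were the less methylated ones where a score is negative. Since that order of subtraction is not given, scores are called "negative" or "positive" throughout. Each score is the authors' own value and serves only to describe and rank regions within the list. Neither group has a replicate, so differences are described and not tested, and the depth of each library is unknown.

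A single region covers a listed start site of a member, and it lies at Bmpr1b, which encodes a type I BMP receptor (ALK6). This region is 766 bp wide (chr3:141981550-141982315) and has a score of 461. It covers the start site and the last 101 bases of the RefSeq promoter window, which runs from 250 bases before the start to 50 bases after it (GRCm38.p6, chr3:141982215-141982514, minus strand). The start is an internal one, 145 kb from the lower end of a gene of 332 kb. In 2 other genes of the pathway, chosen because their windows also overlap a region, the covered stretch lies within the window: Itgb6, whose integrin subunit helps to release TGF-beta from its latent form (score 161; window chr2:60722554-60722853, minus strand), and Amhr2, the receptor of anti-Müllerian hormone (score -41.2; window chr15:102445117-102445416, plus strand). The windows are shown 5′ to 3′ with bases inside a region in capitals.
Bmpr1b: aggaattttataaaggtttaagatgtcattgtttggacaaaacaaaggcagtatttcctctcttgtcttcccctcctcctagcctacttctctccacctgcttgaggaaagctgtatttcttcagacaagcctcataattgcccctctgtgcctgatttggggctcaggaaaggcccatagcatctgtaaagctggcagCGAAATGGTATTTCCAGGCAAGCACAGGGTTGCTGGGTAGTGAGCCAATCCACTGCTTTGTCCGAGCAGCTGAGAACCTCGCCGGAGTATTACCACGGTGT
Itgb6: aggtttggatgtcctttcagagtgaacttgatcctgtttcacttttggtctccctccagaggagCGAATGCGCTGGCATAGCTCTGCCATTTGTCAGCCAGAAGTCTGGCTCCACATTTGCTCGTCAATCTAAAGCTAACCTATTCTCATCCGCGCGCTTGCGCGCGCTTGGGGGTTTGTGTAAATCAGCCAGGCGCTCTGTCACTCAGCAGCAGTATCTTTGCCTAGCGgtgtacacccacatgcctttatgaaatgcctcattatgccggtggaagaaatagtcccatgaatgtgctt
Amhr2: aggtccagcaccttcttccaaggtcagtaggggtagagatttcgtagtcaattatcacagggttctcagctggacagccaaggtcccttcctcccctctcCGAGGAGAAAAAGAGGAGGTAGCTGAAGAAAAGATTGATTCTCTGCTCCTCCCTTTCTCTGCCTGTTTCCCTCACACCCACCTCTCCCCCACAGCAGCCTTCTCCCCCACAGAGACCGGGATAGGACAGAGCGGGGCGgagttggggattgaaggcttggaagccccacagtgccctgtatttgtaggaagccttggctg
All 5 CpG sites of the Bmpr1b window lay inside the region, and the covered stretch begins on the first of them. At Itgb6 11 of 12 CpG sites lay inside the region, and at Amhr2 4 of 5.

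Of the 50 members, 29 (58.0%) had at least 1 region, against 35.1% of 21883 protein-coding genes. Members are long genes, with a median length of 43.4 kb against 17.2 kb over all protein-coding genes, and longer genes have more room for regions. Among genes up to 20 kb, 4 of 17 members (23.5%) and 18.0% of all such genes had a region. Between 20 and 100 kb the counts were 18 of 24 members (75.0%) and 45.3% of all such genes, and above 100 kb 7 of 9 members (77.8%) and 86.2%. The gap to all genes was widest in the middle class of length. Per 100 kb of window the members held 3.14 regions, against 1.62 for all protein-coding genes. The 4 members with most regions, Ltbp1, Tgfbr3, Bmp6 and Bmpr1b, held 54 of the 116.

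**Figure D1:**
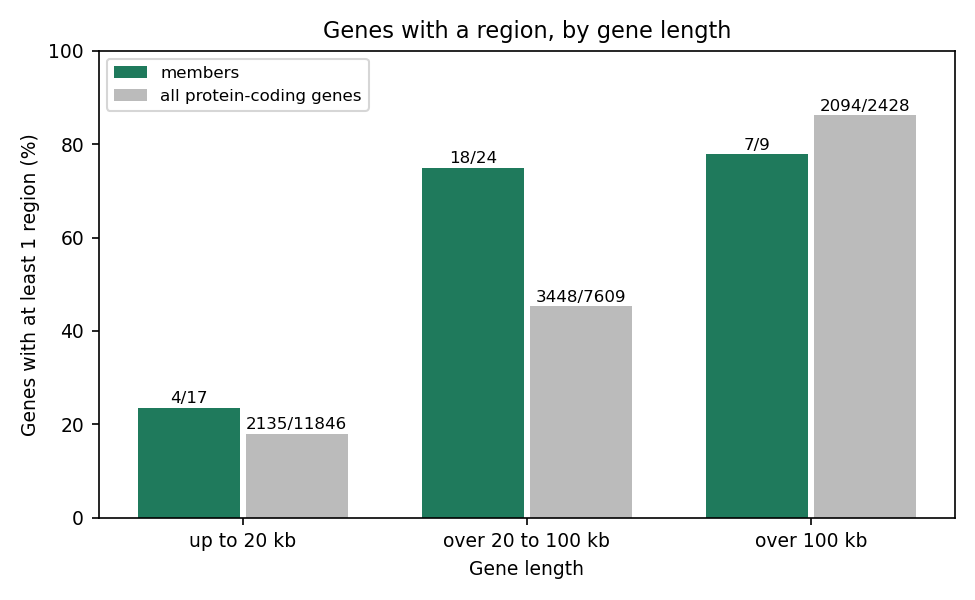
Percent of genes with a region (y axis) by class of gene length (x axis), for the members (left bars) and all protein-coding genes (right bars), with counts above the bars. The members stand at 75.0% against 45.3% in the middle class and below all genes in the longest class.

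The regions of the members were split almost evenly by sign. Of the 116, 60 were negative and 56 positive, or 51.7% negative (95% Wilson interval 42.7 to 60.6), whereas 67.4% of all regions and 66.6% of the regions at protein-coding genes were negative. The interval covers the counting of regions only, and regions of the same gene are not independent. By gene, 10 members had only negative regions, 8 had only positive regions and 11 had both. Over all protein-coding genes 18.2% had only negative, 7.33% only positive and 9.57% both. The even split came from a higher density of positive regions, 1.52 per 100 kb of window against 0.541 at all protein-coding genes, beside 1.63 against 1.08 for negative ones.

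Scores of the members were of ordinary size. Their median absolute score was 49.9, against 49.4 over all regions, and their median width was 97 bp against 112 bp. Regions of absolute score 100 or more numbered 17 of 116 (14.7%), beside 15.5% of all regions, and 12 members (24.0%) had at least 1, against 10.8% of protein-coding genes. Those 17 comprised 8 negative and 9 positive regions. The most positive score was 628, at Ltbp4, which ranked 60 by absolute score among all regions, and the Bmpr1b start region ranked 119. The most negative was -176, at Acvr2b, which ranked 1513.

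**Figure D2:**
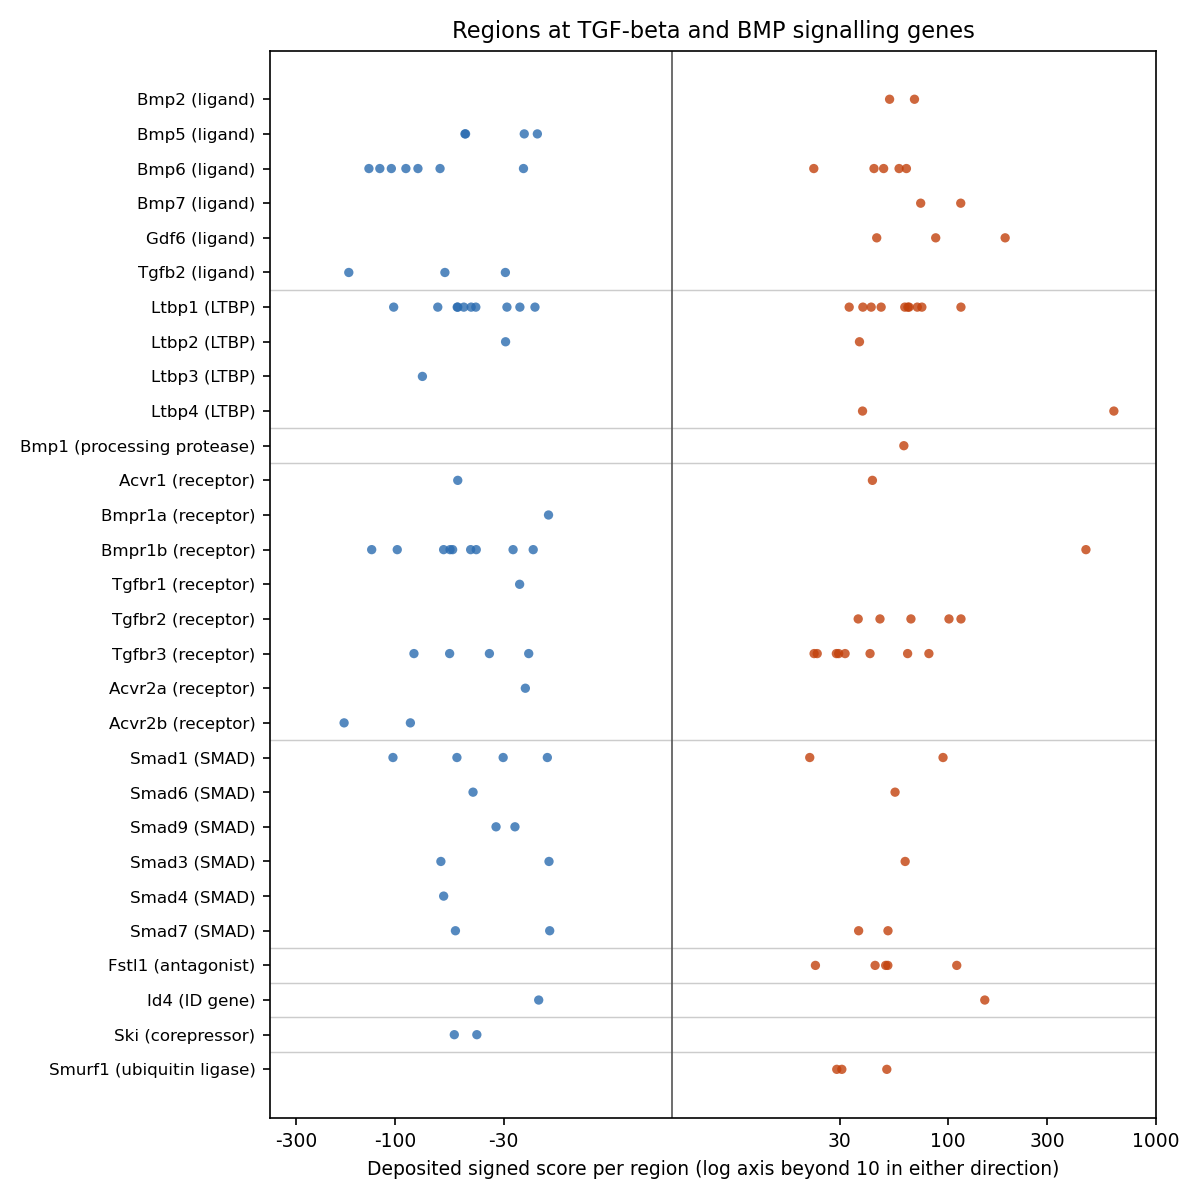
Deposited signed score of every region (x axis, logarithmic beyond 10 in either direction) for each of the 29 members with a region, grouped by role (LTBP, latent TGF-beta binding protein). Points left of the line are negative and points right of it positive. Bmp6, Bmpr1b, Tgfbr3 and Ltbp1 carry the most points, and the farthest point lies at 628 for Ltbp4.

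Among the 13 ligands, 6 had regions (46.2%), against 35.1% of all protein-coding genes. Of the TGF-beta and activin ligands only Tgfb2 had any (1 of 5), whereas 5 of 7 BMP ligands did. Gene length differs between these ligands, and the difference was not tested. Tgfb2 is 86.9 kb long and the other ligands of its arm at most 27.4 kb. Bmp5, Bmp6 and Bmp7 are 125, 155 and 72.3 kb long, while Bmp2 (10.7 kb) and Gdf6 (18.0 kb) had regions as short genes. Tgfb2 had 3 regions, all negative, with scores of -57.5, -29.4 and -167. The strongest of them spans 586 bp (chr1:186694754-186695339) and lies 10.7 kb downstream of the start, 649 bp from its neighbour. The genes of TGF-beta 1 and 3 and of the activin subunits Inhba and Inhbb had none.

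Bmp6, whose product belongs to the BMP5, BMP6 and BMP7 subgroup, held 12 regions over its 155 kb, more than any other ligand. From the start onwards the scores were 22.5, 48.8, -88.7, 57.9, 43.8 and 62.8, and then -134, -104, -24.0, -118, -60.7 and -77.6. Thus 5 of the first 6 were positive and all of the last 6, which span 72.4 kb, were negative. The switch falls between 2 regions that lie 1474 bp apart. The -134 region (346 bp, chr13:38400595-38400940) is the strongest of the gene.

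The 2 relatives of Bmp6 each kept to 1 sign, and they differed from each other. Bmp5 had 4 regions, all negative and weak, at -45.7, -46.0, -20.6 and -23.8. Bmp7, known for promoting brown fat differentiation, had 2 positive regions, 73.6 and 115, 453 bp apart. Bmp2 likewise had 2 positive regions, 68.7 and 52.1, centred 1.36 and 2.59 kb from its lower end. Gdf6, a BMP-type ligand of joint and skeletal development, had 3 positive regions of 45.2, 188 and 87.0 within 1.12 kb (chr4:9858975-9860095). Without Bmp6, 4 of 11 regions of BMP ligands were negative, all of them at Bmp5. Bmp4, a ligand known for committing progenitors to the adipocyte lineage, had no region, nor did Gdf5 or Gdf10.

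**Figure D3:**
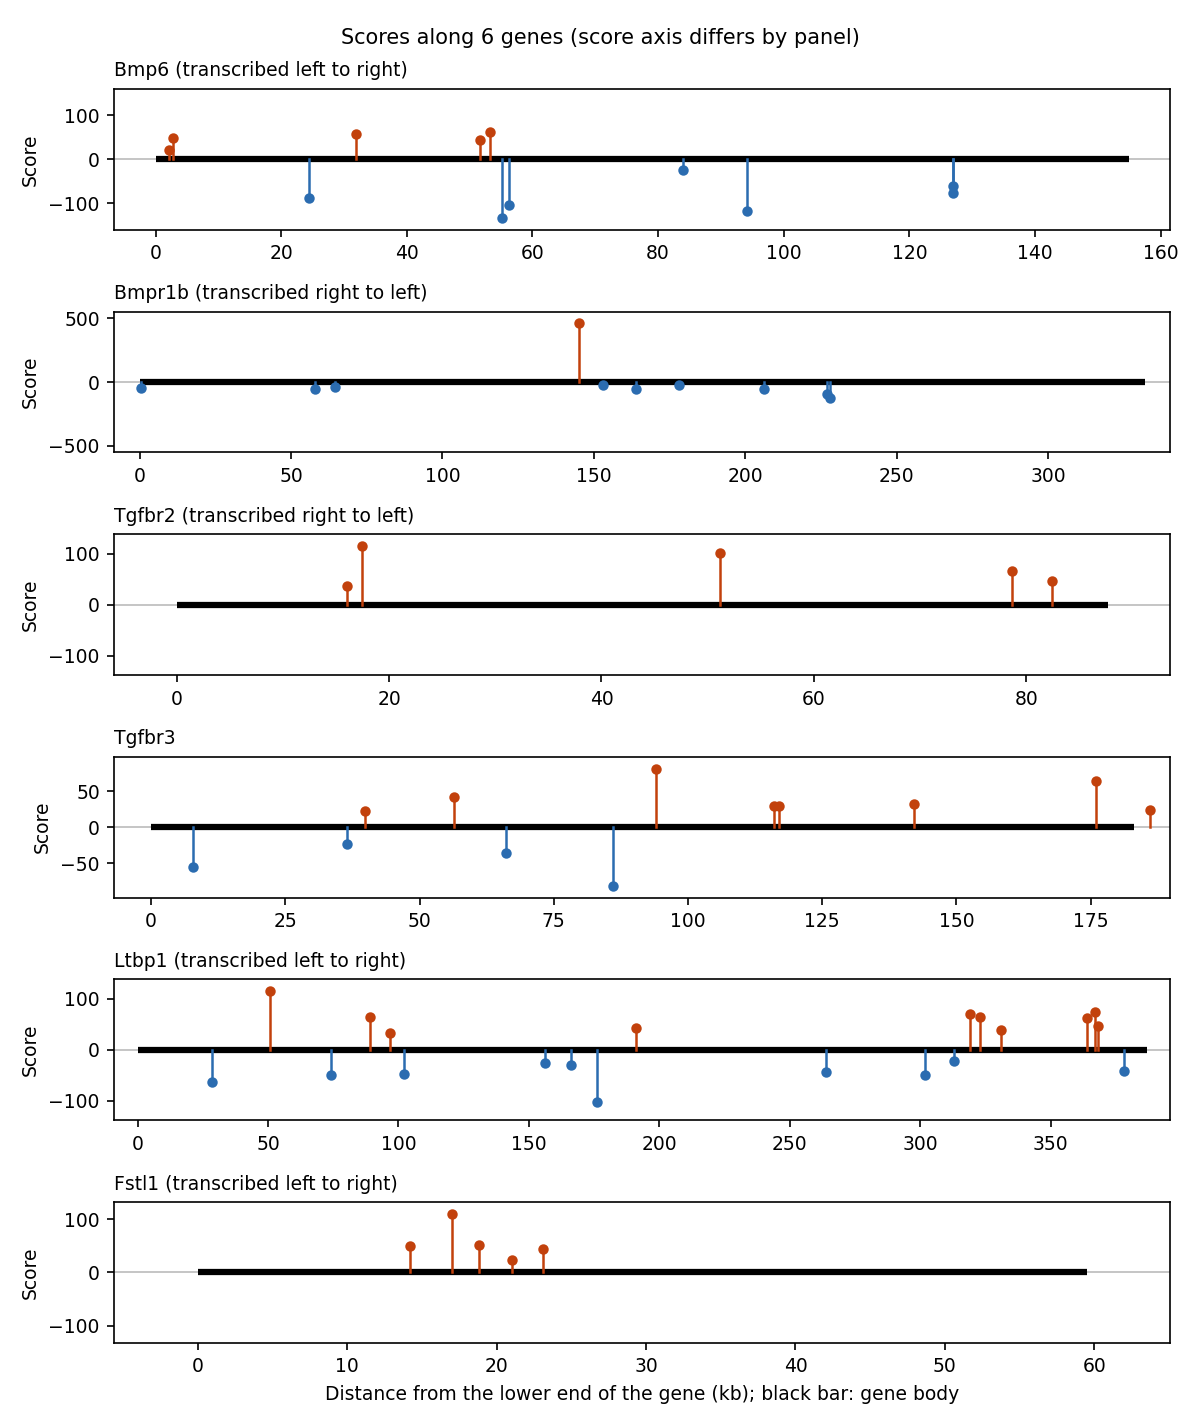
Score of each region (y axis, range differs by panel) against its distance from the lower end of the gene (x axis, kb) for 6 members. Black bars mark gene bodies. The last 6 regions of Bmp6, from 55.1 kb on, are negative, Bmpr1b has a single positive region of 461 among 9 negative ones, and all regions of Tgfbr2 and Fstl1 are positive.

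Latent TGF-beta binding proteins tether the inactive ligand to the matrix, and the genes of all 4 had regions, against 35.1% of all protein-coding genes. These genes are 17.6 to 387 kb long. Ltbp1 had 20, the most of any member, 10 of each sign, over a gene of 387 kb. Its strongest positive region scored 115 and its strongest negative -102, and the latter lies 2.35 kb downstream of an internal start. Signs alternated along the gene in 9 runs, of which the longest was 6 positive regions between 38.8 and 74.6 over 49.9 kb. At 5.04 regions per 100 kb of window Ltbp1 was less dense than Bmp6 (7.29) or Tgfbr3 (6.22).

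Ltbp4 had 2 positive regions 159 bp apart, with scores of 38.6 and 628. The strong one is 420 bp wide (chr7:27329389-27329808) and lies inside the gene, 3.84 kb downstream of the nearest listed start. Ltbp2, whose product does not bind the latent ligand, had 1 region of each sign, 37.3 and -29.3. Ltbp3 had 1 negative region of -73.8. Bmp1, which encodes a protease that cleaves procollagen and the BMP antagonist chordin, had 1 positive region of 61.1.

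Receptor genes had regions in 8 of 10 members (80.0%), against 35.1% of all protein-coding genes. They are long, from 39.6 to 332 kb. A region was present in 45.3% of all protein-coding genes between 20 and 100 kb and in 86.2% of those above 100 kb. TGF-beta and activin receptors held 5 negative regions of 18 (27.8%, interval 12.5 to 50.9), whereas BMP receptors held 11 of 13 (84.6%, 57.8 to 95.7). The share at all protein-coding genes, 66.6%, lies above the first interval and inside the second. Both shares rest on few genes, since Tgfbr3 held 12 of the 18 and Bmpr1b 10 of the 13. Without these, 1 of 6 and 2 of 3 were negative.

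Tgfbr2, the type II receptor that binds TGF-beta, had 5 regions, all positive, with scores of 36.8, 115, 101, 66.1 and 46.9 over 66.5 kb. The 46.9 region is the nearest to the start, at 5.18 kb. Tgfbr3, which encodes the coreceptor betaglycan, had 8 positive and 4 negative regions, all between -81.1 and 80.6. Its 6 regions nearest the upper end, over 92.3 kb, were positive. Tgfbr1, the type I receptor, had a single region, negative and 1132 bp wide, the widest of any member (chr4:47379967-47381098). Its score was nevertheless only -25.1, whereas the 66 regions of at least 1000 bp in the whole list had a median absolute score of 394, and 7 of them scored below 30. Acvr1b, the type I activin receptor, had none.

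At Bmpr1b the start region of 461 stood alone, with 9 negative regions around it, at -43.2, -52.8 and -40.6 on one side and -27.0, -54.3, -21.6, -58.3, -97.6 and -129.6 (534 bp) on the other. The nearest of them is 7300 bp away. The one at -43.2 also lies within 5 kb of Unc5c, and it was the single member region shared with another protein-coding gene. Bmpr1a had 1 weak region (-18.2) and Bmpr2, the type II BMP receptor, had none. Acvr1 (ALK2) had regions of 43.1 and -49.9.

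The type II receptors that serve activins and some BMPs had negative regions only. Acvr2b had 2, at -176 and -84.3. The first is 119 bp wide (chr9:119402310-119402428) and begins 0.132 kb downstream of the start, just past the promoter window, which itself held 27 CpG sites and overlapped no region. Acvr2a had 1, at -23.5.

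SMAD genes had regions in 6 of 8 members (75.0%). They are 28.6 to 111 kb long. Of all protein-coding genes between 20 and 100 kb 45.3% had a region, and above 100 kb 86.2%. Of the 18 SMAD regions, 12 were negative (66.7%, 43.7 to 83.7), against 66.6% at all protein-coding genes. Smad1 had 6 regions, at -30.1, -18.4, -50.3, -102, 21.5 and 94.3 from the lower end upwards. The 4 negative ones, which lie toward the end of the gene, fall within 10.4 kb, and both positive ones are nearer the start. Smad3 had -18.1, -60.1 and 62.0, and the last 2 of these are 4515 bp apart. Smad9 had 2 negative regions, -26.4 and -32.6.

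The inhibitory SMADs carried both signs. Smad6 had -42.1 and 55.4. Smad7 had 51.2 at 4.38 kb outside the gene, and -51.2, -18.0 and 37.0 inside it. Smad4, the common partner of both arms, had 1 region outside the gene (-58.3), 2.10 kb beyond its lower end. Smad2 and Smad5 had none.

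Of 6 secreted antagonists only Fstl1 had regions (16.7%). The other 5 are genes of at most 11.0 kb, and 18.0% of all protein-coding genes up to 20 kb had a region. Per 100 kb of window the antagonists held 3.24 regions, against 3.14 for all members. Fstl1, which encodes a secreted glycoprotein reported to bind BMPs, had 5 positive regions of 49.9, 110, 51.1, 22.9 and 44.4 within 9.08 kb (chr16:37791169-37800248), the narrowest run of 5 or more regions of 1 sign among the members. Grem1, Nog and Chrd, which trap BMPs, and Fst and Fstl3, which trap activins, had none.

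ID genes encode helix-loop-helix inhibitors induced by BMP signals, and of 4 only Id4 had regions (25.0%). All are genes of at most 4.91 kb, and 18.0% of all protein-coding genes up to 20 kb had a region. An Id4 region of 221 bp with a score of 149.9 lies 1.96 kb downstream of the start, inside the gene, and a weak one of -20.3 lies 3.42 kb upstream. Among the intracellular regulators, the SMAD corepressor gene Ski had 2 negative regions (-40.3 and -51.8, 661 bp apart), and its relative Skil had none. Smurf1, a ubiquitin ligase for BMP SMADs, had 3 positive regions (30.7, 29.0 and 50.5), whereas Smurf2 had none.

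As whole arms, TGF-beta and activin genes and BMP genes gave close values, and the difference was not tested. Regions were found in 10 of 19 TGF-beta and activin members (52.6%) and in 14 of 24 BMP members (58.3%), against 35.1% of all protein-coding genes. Densities were 3.30 and 3.32 regions per 100 kb of window. The negative share was 47.1% (34.1 to 60.5) of 51 regions in the TGF-beta and activin arm and 53.6% (40.7 to 66.0) of 56 regions in the BMP arm. Median absolute scores were 46.9 and 50.1. These values rest largely on a few long genes. Ltbp1 held 20 and Tgfbr3 12 of the 51 regions, and Bmp6 12 and Bmpr1b 10 of the 56. The roles within the arms were less alike. Negative shares in the TGF-beta and activin arm and the BMP arm were 100% and 47.8% for ligands, and 27.8% and 84.6% for receptors. The 7 members that serve both arms or neither had 9 regions, 6 of them negative.

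**Figure D4:**
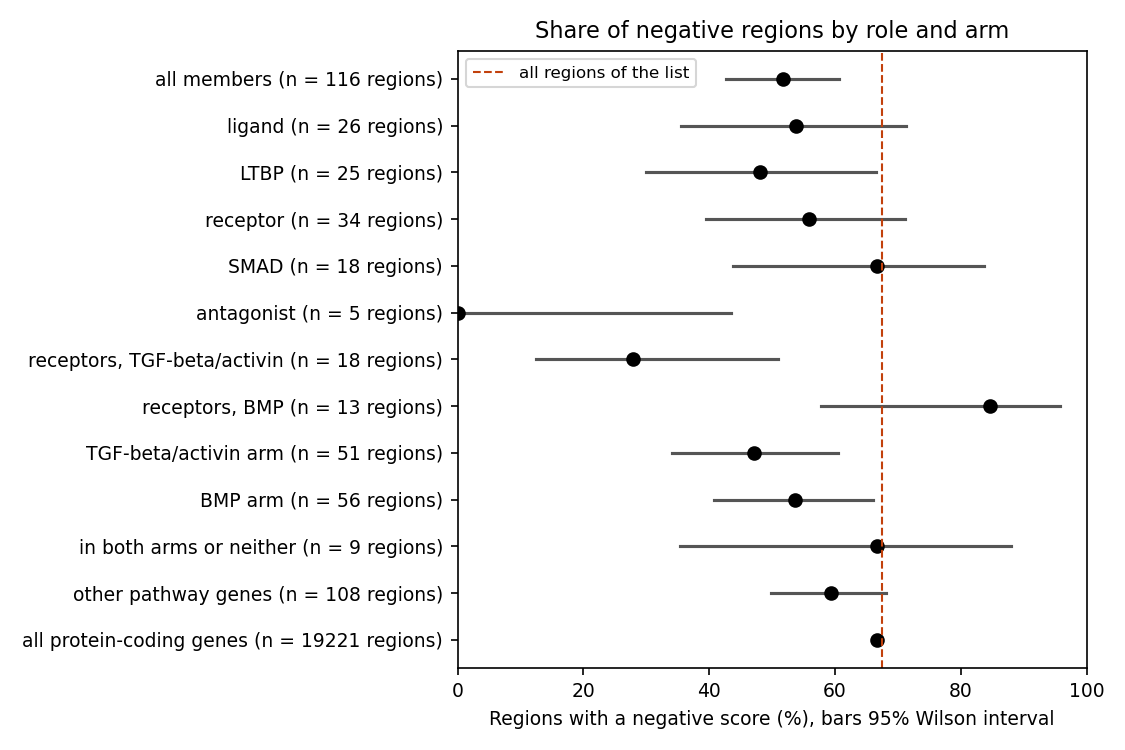
Percent of regions with a negative score (x axis) for the members, their roles, the arms and the receptors of each arm, beside the other pathway genes and all protein-coding genes. Points are shares, bars are 95% Wilson intervals, and the dashed line marks 67.4% for all regions. The receptors of the TGF-beta and activin arm lie at 27.8% and those of the BMP arm at 84.6%.

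Some members with 3 or more regions kept to 1 sign, over spans from 1.12 kb (Gdf6) to 93.0 kb (Bmp5). Of 13 members with 3 or more regions, 6 had a single sign: Tgfb2 and Bmp5 were negative throughout, and Tgfbr2, Gdf6, Fstl1 and Smurf1 positive. Over all protein-coding genes with 3 or more regions, 32.4% had a single sign, and most regions of the list are negative.

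Most regions of the members lay far from a listed start. Start sites are listed for 36 members, which hold 91 of the regions. Of these 91, 2 lay within 1 kb of a start, 10 within 5 kb and 72 beyond 10 kb, with a median distance of 36.7 kb. Such distances were not computed over all regions of the list, and the members are longer genes than most. The 3 starts listed for Bmpr1b are all internal, so its distances do not run from the 5′ end of the gene. The 10 near ones held the 2 strongest positive scores of all members, 628 at Ltbp4 and 461 at Bmpr1b, and their most negative score, -176 at Acvr2b. Of 44 promoter windows of members, the 1 at Bmpr1b overlapped a region (2.27%), against 1.21% of 32851 windows in the table.

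**Figure D5:**
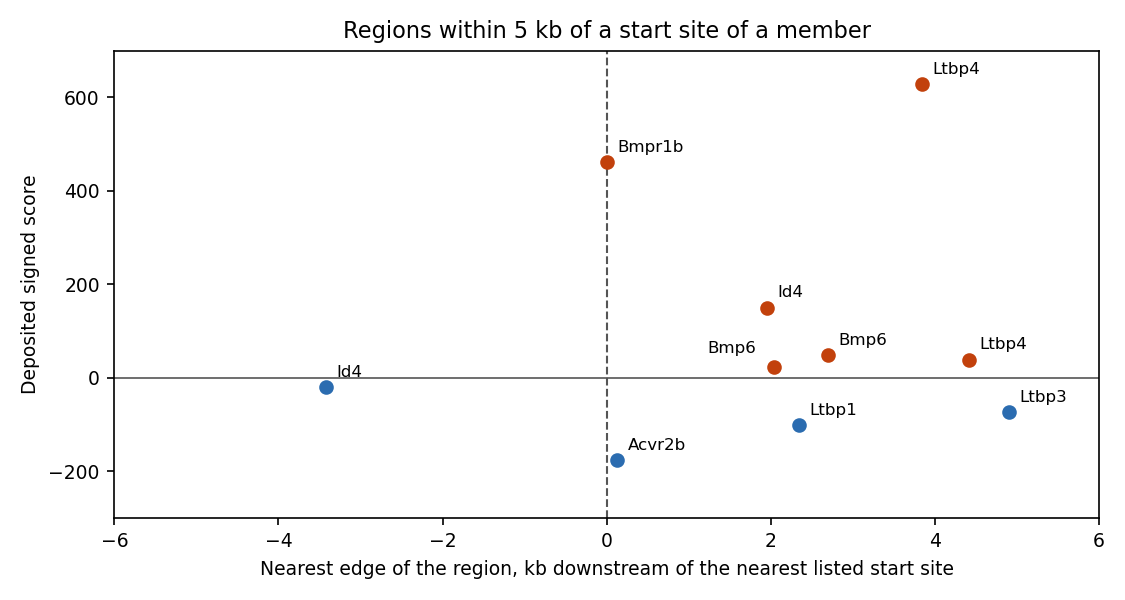
Score (y axis) of the 10 regions within 5 kb of a listed start site of a member against the position of their nearest edge (x axis, kb downstream of the start). Points lie downstream except for Id4 at 3.42 kb upstream, and the start of Bmpr1b lies inside its region.

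Promoter windows of the members were rich in CpG sites, with a median of 27 per window of 300 bases against 7 over all windows. The uncovered majority thus included CpG-rich windows, such as those of Id4 and Ltbp4 (up to 39 sites), while the covered Bmpr1b window had 5. The SMAD-binding sequence GTCTAGAC was found on either strand in 1 of 44 member windows (2.27%, against 0.213% of all windows) and CAGACA in 10 (22.7%, against 21.0%). The GC-rich SMAD motif GGCGCC was in 16 (36.4%, against 11.9%), alongside the higher CpG content. The TEAD motif GGAATG was in 2 (4.55%, against 14.7%). In the printed windows, CAGACA occurred at Bmpr1b 1 time, outside the region, and none of the other motifs was present in any of the 3.

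The 21 members without a region were mostly short genes, 13 of them up to 20 kb. In 17 the nearest region lay within 50 kb, at a median of 29.8 kb over all 21. Just outside the 5 kb limit were regions of 32.5 near Fst (5.17 kb), -34.4 near Smad2 (5.68 kb), -105 near Id3 (6.99 kb) and -126 near Gdf10 (7.14 kb). Stronger ones lay a little farther from members that had a region of their own, 158 near Bmpr1a (8.60 kb) and -143 near Bmp1 (9.37 kb). Smurf1 had 54.8 and 34.7 at 5.14 and 5.37 kb. Ltbp4, positive within its window, had -31.1 at 6.65 kb. Others were 43.4 near Smad1 (7.29 kb), -49.2 near Bmp6 (9.83 kb) and -51.8 near Smad4 (9.99 kb). Just inside the limit, the region of Smad7 at 4.38 kb scored 51.2. The region near Gdf10 is the one inside Gdf2, the gene of another BMP-type ligand. Around Grem1 the nearest region, of 174, lay 28.8 kb away. Nothing lay within 50 kb of Acvr1b, Tgfb3, Fstl3 or Inhba, and for Inhba the distance was 142 kb.

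A further 74 genes of the pathway that are not members had regions in 42 (56.8%), against 35.1% of all protein-coding genes. Per 100 kb of window they held 2.07 regions, against 1.62. Of their 108 regions, 64 were negative (59.3%, 49.8 to 68.1), beside 66.6% at all protein-coding genes, and the difference was not tested. Nedd4l, Fstl4 and Fbn2 held 17, 10 and 9 of the 108. The interval covers the counting of regions only, and regions of the same gene are not independent. By role, 8 of 20 further ligands, 3 of 8 receptors or coreceptors, 10 of 14 antagonists or modulators, 10 of 12 genes of ligand storage or activation, 5 of 12 intracellular effectors and 6 of 8 target genes had at least 1. The shares of ligands (40.0%) and of receptors or coreceptors (37.5%) were near that of all genes. Some of these genes are very long, such as Fstl4 (428 kb) and Nedd4l (333 kb), and 86.2% of all protein-coding genes over 100 kb had a region. The negative share by role was lowest at genes of ligand storage or activation, 10 of 29 regions (34.5%, 19.9 to 52.7), and stood at 4 of 8 for ligands, 18 of 30 for antagonists or modulators and 19 of 25 for intracellular effectors. All 5 regions of the receptors or coreceptors were negative. Of these, 3 lay at Eng, the gene of the coreceptor endoglin, the strongest at -115, past its downstream end by 0.482 kb and also within 5 kb of Fpgs. Furin, the protease that cleaves the TGF-beta precursor, had 2 positive regions, 1 of them (187) 0.267 kb downstream of a start, and Itgb6 had 4, all positive. Fbn2, a fibrillin, had 5 negative regions of 9 with the strongest at 268, while Nrros, a tether of latent TGF-beta on myeloid cells, had 2 negative ones, the stronger at -120. At the target genes 8 of 11 regions were negative (72.7%, 43.4 to 90.3), beside 66.6% at all protein-coding genes, and 3 genes had only negative and 3 only positive regions. Msx1, a BMP target, had 4 negative regions within 2.59 kb, the strongest at -167, and Pmepa1, a feedback inhibitor induced by TGF-beta, had 3 (strongest -154). The ubiquitin ligase gene Nedd4l had 17 regions, 11 of them negative, with the strongest at 266, and the deubiquitinase gene Usp15 had 2, at -105 and -214. Among modulators, Fstl4 had 7 negative regions of 10 (strongest -276) and Crim1, a membrane protein that binds BMPs, 2 of 5 (strongest 236).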

How the data were processed

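Bisulfite-converted genomic DNA was sequenced from 1 library each of PDGFRα+ and CD137+ cells, per the labels. The only values are a deposited score per region in the authors' list of differentially methylated regions. Their build was mm10, according to the submitters' processing notes. The aligner, region caller and read coverage remain unnamed, not given in the sources used here.

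Positions follow BED and are printed counting from 1. As a check of the build, region ends that fell inside RefSeq promoter windows were read: 236 of 236 first bases and 270 of 270 last bases were on a CpG site. Either base of the site counted, so this check cannot see a shift of 1 base within it. Genes came from a RefSeq table of GRCm38.p6, in which all members were found; it has no exons, so exons, introns and untranslated regions were not told apart. Starts and promoter sequences came from RefSeq tables of the same build.

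Members, roles, arms and the further pathway genes were chosen with earlier results of these data known. Described in full are members with 3 or more regions or a region of absolute score 100 or more (17), and 12 further genes by absolute score; Amhr2 and the genes of the closing section were chosen after their values were seen. Shares carry 95% Wilson intervals (scipy 1.17.1). No p-value was computed, since each group has 1 library. Overlap counts were tested on simulated regions. Alternatives changed the window, the overlap, a score minimum, the unit counted, shared regions and the member with most regions.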

Additional observations from a re-analysis of the deposited data

How the results depend on the processing

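Of 87 recomputed values, 77 stayed within 1.5 times the count or inside the 95% interval of the share. This count is no measure of stability. Some alternatives kept nearly the same regions (116, 115 or 112 of the 116), and the intervals of small roles are wide. The share of the processing protease went from 0% to 66.7% with the 50 kb window and still lay inside its interval (0 to 79.3). Likewise antagonists went from 0% to 23.1%. The negative share of member regions was 47.1% to 55.2% under every alternative tried, including 52.1% without Ltbp1. Widening the window to 50 kb raised the members with a region to 46 of 50, against 68.5% of protein-coding genes, and a minimum absolute score of 100 left 12. With that minimum the negative share was 33.3% in the TGF-beta and activin arm (6 regions), 100% among SMADs and among members of both arms (1 region each) and 0% among ID genes. For ID genes it was also 0% in the gene body alone and by summed score. Counted by the sign of each member's summed score, 75% of receptors and 25% of latent TGF-beta binding proteins were negative. These shares rest on 1 to 8 regions or members. No value of a single region could be set against read depth, which is unknown. No paired analysis was possible because each group has 1 library and no test was run.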

Other observations

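Some further genes of the pathway were picked after their values were seen. Fbn1, whose fibrillin microfibrils bind latent TGF-beta complexes, had 6 regions, all positive, with scores from 28.9 to 72.2. None of them lay closer than 21.2 kb to a listed start. Thbs1, which encodes a thrombospondin able to activate latent TGF-beta, had 1 positive region of 95.9. Mstn, the gene of the muscle growth inhibitor myostatin, had 1 positive region of 97.9 at 0.379 kb downstream of its start. Msx1 had the most regions per 100 kb of window among these 74 genes, 28.4, and all 4 were negative.

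The single region inside the promoter window of Amhr2 had a score of -41.2, the weakest of the 3 scores at promoter windows of the pathway. Across the whole promoter table, windows that overlapped a region had a median of 8 CpG sites, against 7 over all windows.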
